A study of Mus musculus with 6 samples.

Results

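The genes described here are those for mitochondrial ribosomal proteins, taken as every gene of the deposited expression table whose symbol is Mrpl or Mrps followed by a number and at most 1 further letter. There were 78 such genes among 18169 in the table, 49 named Mrpl for the large subunit and 29 named Mrps for the small subunit. The rule reads names alone and no measured value, although the group was taken up with earlier results of these data known.

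RNA was sequenced from Hepa 1-6 cells, a mouse line grown from a hepatoma and labelled as hepatocytes, in 3 libraries treated with Shh and 3 libraries given vehicle. Shh is Sonic hedgehog, the secreted ligand of the Hedgehog pathway, and no other agent or allele is named for either group. The sources used here give neither dose nor duration of this Shh treatment, everything comes from 1 cell line, and the labels leave unsaid if libraries of one group were separate cultures, so p-values here cover the spread among these libraries only, which may be technical. The series' design text speaks of exosomes and mouse livers, whereas every sample label names the cell line, and the labels were followed.

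The mitochondrial ribosome sits in the mitochondrial matrix, attached to the inner membrane, and translates the few messages of mitochondrial DNA, nearly all of them into core subunits of the respiratory chain and ATP synthase. Its RNA comes from mitochondrial DNA, while its proteins are encoded in the nucleus, made in the cytosol and imported. Some of these proteins descend from the bacterial ribosome and others are found only in mitochondria. In a cell of hepatocyte origin, rich in mitochondria, the genes are expressed steadily as housekeeping genes, and motifs of ETS factors, NRF1 and YY1 are well known from the promoters of such genes.

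The promoters of the 2 members of each subunit with the smallest p are shown because the members lay to one side together, and that of *Mrpl12* because this member had the highest level. Each run is the RefSeq sequence of GRCm38.p6 from 250 bases before to 50 bases after the gene's start, 5′ to 3′ on the strand of the gene, and capitals mark the ETS core CCGGAAG as read on either strand. *Mrps21* lies at chr3:95871465-95871764 (minus strand), *Mrps12* at chr7:28741772-28742071 (minus strand), *Mrpl34* at chr8:71464676-71464975 (plus strand), *Mrpl57* at chr14:57825989-57826288 (plus strand) and *Mrpl12* at chr11:120484387-120484686 (plus strand).
Mrps21: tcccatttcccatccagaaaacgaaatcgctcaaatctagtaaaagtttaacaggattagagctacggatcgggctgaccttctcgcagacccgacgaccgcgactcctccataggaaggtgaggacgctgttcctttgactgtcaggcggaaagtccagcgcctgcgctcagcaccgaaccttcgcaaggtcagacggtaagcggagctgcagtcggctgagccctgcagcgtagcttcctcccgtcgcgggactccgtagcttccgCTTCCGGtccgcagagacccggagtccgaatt
Mrps12: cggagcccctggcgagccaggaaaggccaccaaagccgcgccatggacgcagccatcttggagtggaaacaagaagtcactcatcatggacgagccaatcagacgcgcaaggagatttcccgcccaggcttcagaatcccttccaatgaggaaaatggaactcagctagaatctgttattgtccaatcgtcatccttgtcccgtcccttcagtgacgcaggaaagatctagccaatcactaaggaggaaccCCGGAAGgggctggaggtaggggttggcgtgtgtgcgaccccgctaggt
Mrpl34: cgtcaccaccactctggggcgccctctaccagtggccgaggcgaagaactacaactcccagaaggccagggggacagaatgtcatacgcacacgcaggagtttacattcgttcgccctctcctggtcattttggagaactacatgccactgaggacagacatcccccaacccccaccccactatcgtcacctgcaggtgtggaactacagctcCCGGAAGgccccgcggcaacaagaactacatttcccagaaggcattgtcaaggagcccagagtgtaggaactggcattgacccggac
Mrpl57: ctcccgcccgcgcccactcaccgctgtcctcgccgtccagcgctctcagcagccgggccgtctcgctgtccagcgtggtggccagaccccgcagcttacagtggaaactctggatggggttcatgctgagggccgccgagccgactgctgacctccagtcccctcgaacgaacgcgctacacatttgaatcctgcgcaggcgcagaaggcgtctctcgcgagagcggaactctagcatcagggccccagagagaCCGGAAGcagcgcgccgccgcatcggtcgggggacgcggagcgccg
Mrpl12: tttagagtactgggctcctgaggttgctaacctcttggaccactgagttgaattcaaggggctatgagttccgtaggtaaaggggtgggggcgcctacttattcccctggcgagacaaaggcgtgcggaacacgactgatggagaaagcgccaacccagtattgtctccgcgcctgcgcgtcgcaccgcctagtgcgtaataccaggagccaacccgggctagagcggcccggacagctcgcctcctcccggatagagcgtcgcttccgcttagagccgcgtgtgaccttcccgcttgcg
The ETS core was in each of these but that of *Mrpl12*, and it was less general than the printed set shows. Of the 10 members with the smallest p, 5 of each subunit, 9 had a promoter, and 6 of these held the core while *Mrps10*, *Mrpl45* and *Mrpl28* did not.

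At least 1 promoter was found for 69 of the 78 members, and 66 of them had a single one. A member counts as holding a motif if any of its promoters does. The ETS core CCGGAAG occurred on either strand in 26 of the 69 (37.7%), in 15 of 43 Mrpl and 11 of 26 Mrps genes, against 20.3% of the tested genes with a promoter and 8.86% of all 32851 promoters of that length. The NRF1 core, GCGCA and GCGC with any base between them, occurred in 13 members (18.8%), among them *Mrps21*, *Mrpl57* and *Mrpl12*, against 11.4% of tested genes and 4.60% of all promoters. The YY1 core AAGATGGC occurred in 12 members (17.4%), among them *Mrps12*, against 5.32% of tested genes and 2.75% of all promoters. At least 1 of these motifs was in 43 of the 69 members (62.3%) and in 32.6% of the tested genes with a promoter. CCGGAAG and AAGATGGC share the letters AAG, so that a single stretch can hold both. A match says only that the letters are present. The median log2 fold change of Shh against vehicle was -0.10 in the 26 members with the ETS core and -0.087 in the 43 members without it. For the NRF1 core it was -0.095 in 13 members with it and -0.094 in 56 without it. For the YY1 core it was -0.092 in 12 members with it and -0.094 in 57 without it. Whether a motif goes with the fold change was not tested.

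Each library held 20253781 to 20335463 estimated read counts. Chi-square over genes, divided by its degrees of freedom, was 4.13 to 9.64 between Shh libraries and 1.70 to 2.33 between vehicle libraries, so none was a copy of another, and Shh replicate 2 stood apart, at 9.73 to 12.2 from the vehicle libraries against 2.17 to 2.67 for Shh replicate 1. The hepatocyte markers *Alb* (494 FPKM in Shh and 494 FPKM in vehicle libraries) and *Afp* (190.2 and 192.0 FPKM) were present, whereas *Serpina1a* and *Ttr*, also markers of hepatocytes, were near 0. The 6 stromal markers summed to 19.6 to 63.5 CPM (counts scaled to library size) in Shh libraries, highest in Shh replicate 1, and to 23.3 to 40.6 in vehicle libraries. The 6 immune markers summed to 15.5 to 25.9 in Shh and 18.7 to 19.9 in vehicle libraries, and the 5 endothelial markers to 1.28 to 2.91 and 1.33 to 2.42. The part of these in the results was not tested. The Hedgehog targets *Gli1* (2.17 to 2.76 CPM in Shh and 2.12 to 2.46 in vehicle libraries) and *Ptch1* (33.6 to 37.8 and 31.1 to 36.1) overlapped between the groups.

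All 78 members passed the filter on low counts and entered the test with 12286 genes. By level, in FPKM (fragments scaled by transcript length and by library size), they spanned a wide range, and the order among them was nearly the same in both groups (Spearman's rho 0.996 over 78 genes, as a description of libraries of 1 cell line). In the large subunit *Mrpl12*, whose protein forms the flexible stalk that recruits translation factors, was highest, at 299.5, 265.8 and 299.3 FPKM in Shh libraries, against 308.0, 312.2 and 300.3 FPKM in vehicle libraries. The groups did not overlap, although Shh replicates 1 and 3 came within about 1 FPKM of the lowest vehicle library. *Mrpl13*, a relative of a bacterial large subunit protein, followed with 207.1 ± 12.3 FPKM in Shh and 209.8 ± 5.1 FPKM in vehicle libraries (SD, n = 3 each). *Mrpl52*, a protein particular to mitochondria, had 164.3 ± 16.4 FPKM in Shh and 179.6 ± 7.63 FPKM in vehicle libraries (SD, n = 3 each). These neighbours in the order differed from each other by more than their spread.

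At the low end of the large subunit were *Mrpl41*, *Mrpl1* and *Mrpl19*. *Mrpl41*, a mitochondria-specific protein, had 9.74 ± 1.04 FPKM in Shh and 9.83 ± 0.625 FPKM in vehicle libraries (SD, n = 3 each). *Mrpl1*, the relative of the bacterial protein of the mobile stalk beside the exit site of tRNA, had 15.1 ± 1.02 FPKM in Shh and 15.2 ± 0.597 FPKM in vehicle libraries. *Mrpl19*, of bacterial descent, had 16.1 ± 0.761 FPKM in Shh and 16.3 ± 0.557 FPKM in vehicle libraries. The libraries of *Mrpl1* and *Mrpl19* overlapped in both groups, and *Mrpl41* lay below both by more than the spread.

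In the small subunit *Mrps21*, a relative of the bacterial protein near the platform of the subunit, was highest, with 230.5 ± 12.5 FPKM in Shh and 256.9 ± 7.82 FPKM in vehicle libraries (SD, n = 3 each). *Mrps24*, of bacterial descent, had 99.6 ± 8.02 FPKM in Shh and 109.0 ± 1.73 FPKM in vehicle libraries, and *Mrps15*, a relative of a bacterial rRNA-binding protein, had 109.5 ± 5.30 FPKM in Shh and 107.9 ± 4.96 FPKM in vehicle libraries. Those 2 neighbours did not differ beyond their spread in vehicle libraries. The lowest were the mitochondria-specific *Mrps25* (13.6 ± 0.410 FPKM in Shh and 13.5 ± 0.260 FPKM in vehicle libraries), *Mrps31* (18.9 ± 1.06 and 19.2 ± 0.964 FPKM) and *Mrps22* (24.8 ± 1.34 and 24.2 ± 0.197 FPKM). Each of these lay apart from the next by more than its spread. The median member had 54.8 ± 2.30 FPKM in Shh and 57.7 ± 2.46 FPKM in vehicle libraries for Mrpl genes, and 60.7 ± 3.55 FPKM in Shh and 65.6 ± 0.50 FPKM in vehicle libraries for Mrps genes (SD over 3 libraries each).

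**Figure D1:**
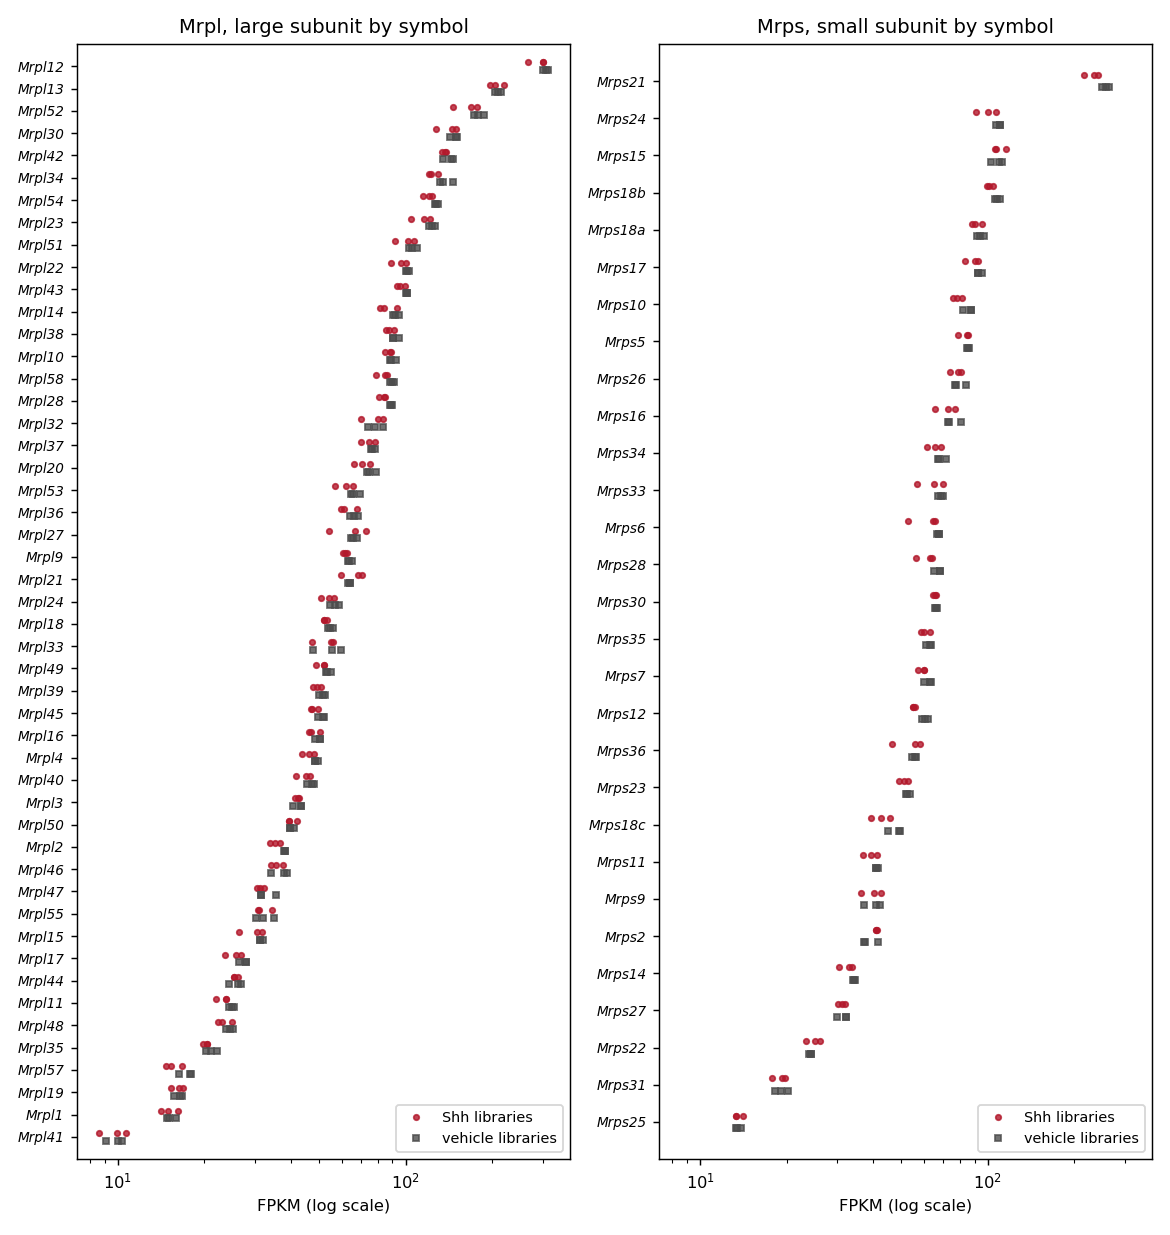
FPKM of each member (horizontal axis, log scale) in the 3 Shh libraries (red circles, upper) and the 3 vehicle libraries (grey squares, lower), sorted by the vehicle mean within Mrpl and Mrps. *Mrpl12* at 288.2 FPKM in Shh and 306.8 FPKM in vehicle libraries and *Mrpl41* at 9.74 and 9.83 FPKM are the ends of the range.

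The question of the main comparison was how RNA of Shh-treated cells differs from that of vehicle-treated cells. Members of both subunits lay slightly below vehicle, by similar amounts. The log2 fold change, fitted by edgeR with TMM scaling (which sets a typical gene near 0), was below 0 in 75 of 78 members, in 48 of 49 Mrpl and 27 of 29 Mrps genes, against 48.8% of all genes tested. The median was -0.095 over the members, against 0.0028 over all genes tested. In bulk samples, less RNA per cell and fewer cells of a type cannot be told apart.

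No member passed an adjusted p under 0.05. The count was 0 of 78 by edgeR's quasi-likelihood test with Benjamini-Hochberg adjustment over all genes, against a background of 0% (0 of 12286 genes), and it was 0 by DESeq2. At an unadjusted p under 0.05, 18 members were lower in edgeR (10 Mrpl and 8 Mrps), against 5.56% of all genes, and 0 members were higher, against 4.83% of all genes. DESeq2 gave 15 members lower, against 3.87% of all genes, and 0 higher at that p. All 3 Shh libraries lay below all 3 vehicle libraries in 26 members (15 Mrpl and 11 Mrps), against 8.67% of all genes, and above them in 0 members, against 6.79% of all genes. The members share libraries and are not replicates of one another.

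**Figure D2:**
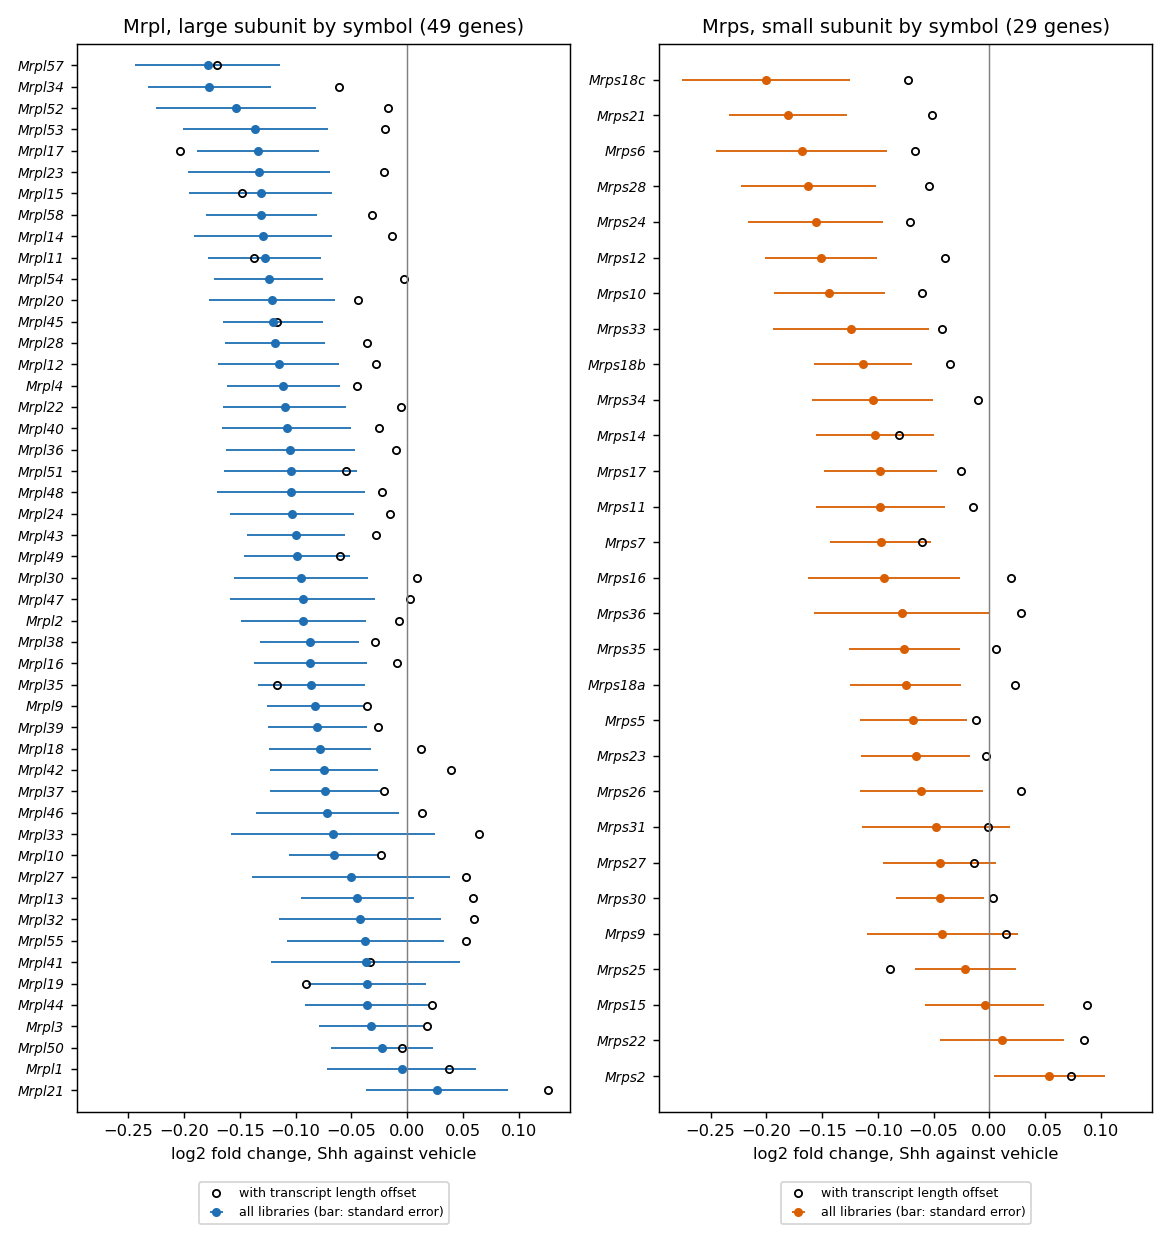
Log2 fold change of Shh against vehicle (horizontal axis) for each Mrpl gene (left) and Mrps gene (right), with its standard error as a bar and with the value after an offset for transcript length as an open circle. Filled points lie below 0 in 75 of 78 members, and open circles in 54.

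The 5 small subunit genes with the smallest p were *Mrps21*, *Mrps12*, *Mrps10*, *Mrps28* and *Mrps18c*, all of bacterial descent. Values are CPM after TMM scaling. *Mrps21* had 105.9, 92.2 and 101.4 CPM in the Shh libraries, against 113.9, 109.5 and 115.9 CPM in the vehicle libraries. The Shh libraries all lay below the vehicle libraries, and Shh replicate 2 was lowest. Its log2 fold change was -0.18 (standard error 0.053, unadjusted p = 0.0051, adjusted p = 0.469 from edgeR), and the adjusted p was the same in all 10 members with the smallest p, 5 of each subunit. *Mrps12*, the relative of the bacterial protein at the decoding centre, had 36.5, 35.1 and 37.1 CPM in Shh libraries, against 39.5, 41.5 and 39.7 CPM in vehicle libraries. These Shh libraries lay close together and below all vehicle libraries, and the log2 fold change was -0.15 (standard error 0.050). *Mrps10*, which belongs to the head of the subunit, had 82.9, 77.1 and 76.3 CPM in Shh libraries, against 88.9, 89.0 and 83.1 CPM in vehicle libraries. The groups were apart by a narrow gap, and the log2 fold change was -0.14 (standard error 0.050). *Mrps28* had 43.2, 37.1 and 42.2 CPM in Shh libraries, against 46.7, 46.3 and 44.0 CPM in vehicle libraries. The groups did not overlap, and the log2 fold change was -0.16 (standard error 0.061). *Mrps18c*, the paralog that takes the place of the bacterial protein, had 20.7, 17.3 and 19.2 CPM in Shh libraries, against 22.8, 22.5 and 20.6 CPM in vehicle libraries. Shh replicate 1 lay within the vehicle range, and the log2 fold change of -0.20 (standard error 0.075) was the lowest of the 78.

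The 5 large subunit genes were *Mrpl34*, *Mrpl57*, *Mrpl45*, *Mrpl28* and *Mrpl58*. *Mrpl34*, of bacterial descent, had 77.7, 70.2 and 72.7 CPM in Shh libraries, against 88.6, 81.4 and 79.3 CPM in vehicle libraries. The groups did not overlap, and the log2 fold change was -0.18 (standard error 0.055). *Mrpl57*, a mitochondria-specific protein, had 38.2, 32.8 and 35.0 CPM in Shh libraries, against 41.6, 41.0 and 37.4 CPM in vehicle libraries. Shh replicate 1 lay above the lowest vehicle library, and the log2 fold change was -0.18 (standard error 0.065). *Mrpl45*, whose protein anchors the ribosome to the inner membrane beside the exit tunnel, had 119.9, 111.0 and 111.6 CPM in Shh libraries, against 120.8, 125.1 and 126.2 CPM in vehicle libraries. Shh replicate 1 came within 1 CPM of the lowest vehicle library, and the log2 fold change was -0.12 (standard error 0.045). *Mrpl28*, of bacterial descent, had 86.8, 80.3 and 85.1 CPM in Shh libraries, against 90.7, 92.1 and 90.9 CPM in vehicle libraries. The groups did not overlap, and the log2 fold change was -0.12 (standard error 0.045), or -0.036 with an offset for transcript length. *Mrpl58*, a peptidyl-tRNA hydrolase that became part of the ribosome, had 67.9, 61.0 and 66.5 CPM in Shh libraries, against 72.0, 71.5 and 70.4 CPM in vehicle libraries. These did not overlap either, and the log2 fold change was -0.13 (standard error 0.050).

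Of the members above 0, *Mrps2*, of bacterial descent, had 83.3, 81.0 and 83.0 CPM in Shh libraries, against 77.2, 76.3 and 84.8 CPM in vehicle libraries. Vehicle replicate 3 lay above all Shh libraries, and the log2 fold change was 0.054 with a standard error of 0.050 (adjusted p = 0.704 in edgeR). *Mrpl21*, also of bacterial descent, had 52.8, 45.1 and 54.3 CPM in Shh libraries, against 49.55, 49.97 and 49.86 CPM in vehicle libraries. Shh replicate 2 lay below the vehicle libraries and the other Shh libraries above them, and the log2 fold change, 0.027 with a standard error of 0.064, had an adjusted p = 0.901 in edgeR. It was -0.0031 without Shh replicate 1 and -0.025 without Shh replicate 3. *Mrps22*, a mitochondria-specific protein mutated in an inherited respiratory chain deficiency in humans, had 27.4, 29.7 and 29.1 CPM in Shh libraries, against 28.3, 28.6 and 28.6 CPM in vehicle libraries. The groups overlapped, and the log2 fold change, 0.011 with a standard error of 0.055 (adjusted p = 0.952 in edgeR), was -0.013 without Shh replicate 2.

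The large and the small subunit did not part. The median log2 fold change was -0.095 for Mrpl and -0.094 for Mrps genes, a difference of -0.0012. Summed over the genes of a subunit, Mrpl came to 3760, 3372 and 3651 CPM in Shh libraries, against 3860, 3835 and 3818 CPM in vehicle libraries. Mrps came to 2013, 1820 and 1971 CPM in Shh libraries, against 2046, 2067 and 2047 CPM in vehicle libraries. Both sums were below every vehicle library in every Shh library, and both were lowest in Shh replicate 2. The ratio of the Mrpl to the Mrps sum was 1.87, 1.85 and 1.85 in Shh libraries, against 1.89, 1.86 and 1.87 in vehicle libraries. The ratios overlapped, with means of 1.86 ± 0.0087 in Shh and 1.87 ± 0.016 in vehicle libraries (SD, n = 3 each), so the difference was within the spread of the libraries. Leaving out Shh replicate 2 gave a median of -0.058 for Mrpl and -0.040 for Mrps genes, and leaving out vehicle replicate 2 gave -0.10 for Mrpl and -0.075 for Mrps genes, so that the difference between the medians became -0.018 and -0.026 in that order.

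The symbols do not always name the subunit. *Mrps30* and *Mrps18a* are named for the small subunit, yet their proteins sit in the large one, and *Mrps36* is now known as a part of the 2-oxoglutarate dehydrogenase complex. Sorted by structure and without *Mrps36*, 51 large subunit genes had a median of -0.094 and 26 small subunit genes a median of -0.097. *Mrps30* had 99.7, 99.1 and 100.2 CPM in Shh libraries, against 102.5, 102.8 and 103.1 CPM in vehicle libraries. Its Shh libraries all lay below the vehicle libraries, by only -0.044 on the log2 scale (standard error of 0.039, adjusted p = 0.690 in edgeR), which was 0.0031 with an offset for transcript length. The Mrps18 paralogs, whose bacterial relative is a single protein, differed in value: *Mrps18c* was at -0.20, *Mrps18b* at -0.11 (standard error 0.044) and *Mrps18a* at -0.075 (standard error 0.050). *Mrps18a* was at 0.023 with the length offset.

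By origin and place, 30 large subunit proteins of bacterial descent had a median of -0.093 with 29 below 0 and 5 of them under an unadjusted p of 0.05, and 21 that are specific to mitochondria had a median of -0.099 with 21 below 0 and 5 lower at that p. In the small subunit, 16 of bacterial descent had a median of -0.10 with 15 below 0 and 7 lower at that p, and 10 specific to mitochondria had a median of -0.063 with 9 below 0 and 1 lower at that p, all beside 5.56% of all genes. The 5 genes of the factor-binding stalk and its base, *Mrpl12* among them, had a median of -0.12. The 6 of the central protuberance, the top of the large subunit, had a median of -0.083, and the 8 around the exit tunnel, where the new protein leaves, had a median of -0.11. All members of these 3 places lay below 0, and none of them passed the adjusted threshold in edgeR, as for the members as a whole. With an offset for transcript length their medians were -0.024 for the stalk, -0.0051 for the central protuberance, where 3 of 6 genes lay below 0, and -0.018 for the exit tunnel, and without Shh replicate 2 they were -0.072, -0.053 and -0.062 in that order. With the length offset the medians by origin were -0.012 and -0.023 in the large subunit and -0.046 and -0.0067 in the small subunit, for bacterial descent and for mitochondria alone. Without Shh replicate 2 they were -0.053 and -0.059 in the large subunit and -0.056 and -0.023 in the small subunit.

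Library by library, the medians of both subunits shifted alike, and by unlike amounts in the Shh libraries. The median deviation from the vehicle mean, in log2 CPM, was -0.032, -0.18 and -0.065 in Shh replicates 1, 2 and 3, against 0.0040, 0.0045 and -0.011 in the vehicle libraries. For Mrpl genes it was -0.031, -0.19 and -0.070 in the Shh libraries, and for Mrps genes -0.032, -0.17 and -0.042. Shh replicate 2 was thus the lowest in both subunits. It was the lowest of the 6 libraries in 65 members (40 Mrpl and 25 Mrps), whereas it was the lowest in 27.5% of all genes tested. A Shh library was the lowest in 75 members, against 56.3% of all genes, and a vehicle library was the highest in 69, against 44.1% of all genes.

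**Figure D3:**
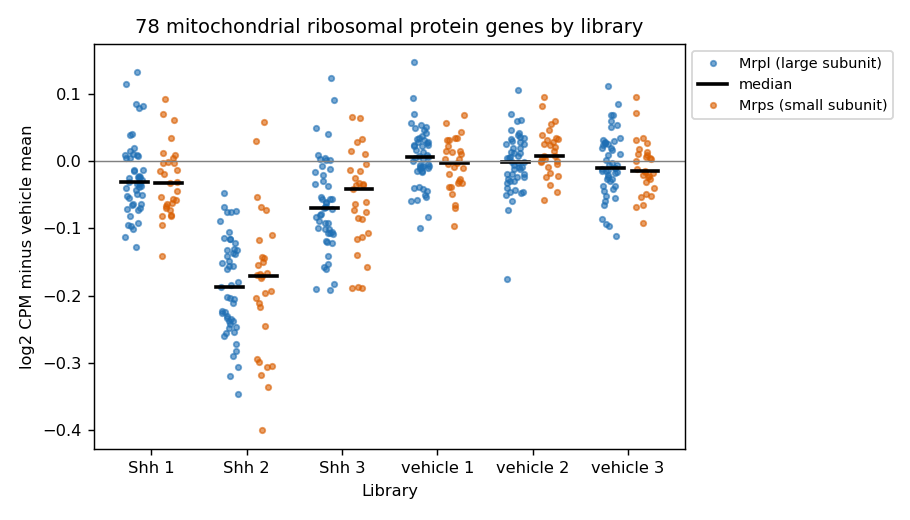
Log2 CPM of each member minus its mean over the vehicle libraries (vertical axis) in the 3 Shh libraries (left) and the 3 vehicle libraries (right), with Mrpl in blue, Mrps in orange and medians as black bars. Shh replicate 2 has the lowest medians, -0.19 for Mrpl and -0.17 for Mrps.

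Without Shh replicate 2, 62 of 78 members lay below 0, against 48.4% of all genes, with a median of -0.051. At an unadjusted p under 0.05, 5 were lower, against 3.67% of all genes, and 1 was higher, *Mrpl21* at 0.10, against 315 of 12453 genes. Shh replicate 1 had the least shifted members of the Shh libraries, and without it 39 members were lower at that p, against 10.4% of all genes, and *Mrps21* passed the adjusted threshold (log2 fold change -0.22, adjusted p = 0.0495 from edgeR), the single member to do so, against 0.686% of all genes called lower. When transcript length was also allowed for by an offset, *Mrps21* was at -0.068 (adjusted p = 0.562 from edgeR). Leaving out vehicle replicate 1 gave 3 members lower at the unadjusted p, against 2.58% of all genes, and leaving out vehicle replicate 2 gave 4, against 2.93%. Leaving out vehicle replicate 3 gave 12, against 4.34%.

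Transcript length moved with the result. The lengths behind the deposited FPKM, recovered from counts and FPKM, had a median of 1011 bases in the members (363 to 6663 bases) and 2690 bases in all genes tested, and 72 of 78 members were shorter than the median gene. Over all 11471 genes with a length, the log2 fold change rose with length (Spearman's rho 0.54, a description over genes that share the 6 libraries). Within the members rho was 0.33 over 78 genes, and 0.13 without Shh replicate 2. The 26 shortest members (363 to 865 bases) had a median log2 fold change of -0.11, the 26 in the middle -0.098, and the 26 longest (1375 to 6663 bases) -0.071.

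With an offset that removes each library's smooth trend with length, the members lay nearer to all genes, whose median was then -0.0036. Of the 78, 54 lay below 0, against 52.1% of all genes, with a median of -0.019 (-0.021 for Mrpl and -0.014 for Mrps). At an unadjusted p under 0.05, 6 were lower, 6 Mrpl and 0 Mrps, against 3.48% of all genes, and whether the subunits differ in this was not tested. At that p 1 was higher, *Mrpl21* at 0.13, against 298 of 11471 genes. The shortest members then had a median of -0.0078, the middle ones -0.019 and the longest -0.034. The groups did not overlap, with Shh below, in 11 members, against 7.1% of all genes. Over the 78 members Spearman's rho between length and log2 fold change was then -0.37, against 0.33 without the offset. The lowest values were then among the longer members, named here after their values were seen, apart from *Mrpl57* and *Mrpl45*. *Mrpl57* and *Mrpl45* were shorter than the median gene tested, of 2690 bases. *Mrpl17*, of bacterial descent, with a length of 6663 bases, was at -0.20 with the offset and -0.13 without it. *Mrpl57* (2284 bases) was at -0.17 with the offset and -0.18 without it, *Mrpl15* (3082 bases), at -0.15 and -0.13, *Mrpl11* (2833 bases), a protein of the stalk base, at -0.14 and -0.13, *Mrpl35* (3646 bases), at -0.12 and -0.086, and *Mrpl45* (2400 bases), at -0.12 with and without it. Short members such as *Mrps21* (436 bases) and *Mrps18c* (453 bases) were at -0.051 and -0.072 with the offset. The others of the 10 members with the smallest p also lay nearer to 0 with it. *Mrpl34* was at -0.061, *Mrpl28* at -0.036 and *Mrpl58* at -0.032. *Mrps10* was at -0.060, *Mrps28* at -0.054 and *Mrps12* at -0.040. The part of RNA quality in this trend was not tested.

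**Figure D4:**
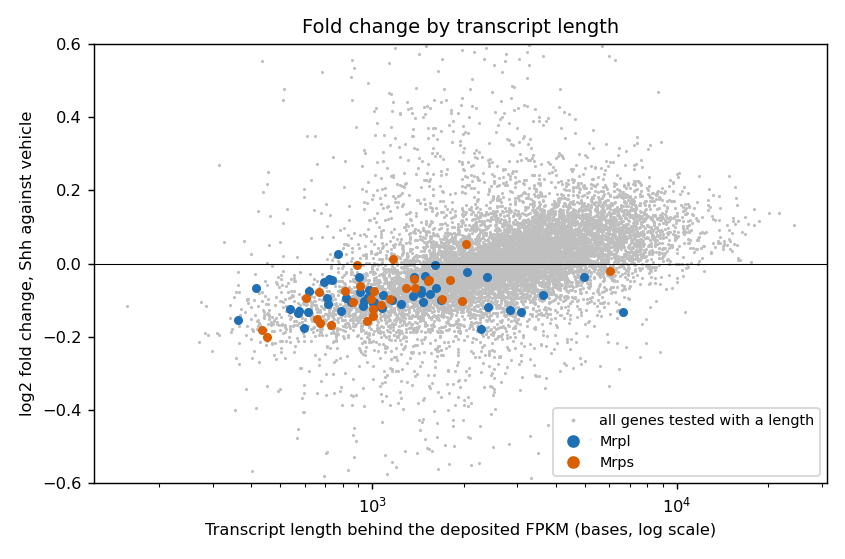
Each point is a gene, with its transcript length in bases on the horizontal log axis and its log2 fold change, Shh against vehicle, on the vertical axis. All genes tested are in grey, Mrpl in blue and Mrps in orange, most of them among the short genes, 72 of 78 below the median length of 2690 bases; 88 of the 11471 grey points lie beyond the vertical axis.

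Some members lie head to head with another gene, and how common this is over all genes was not counted. In the mouse annotation GENCODE M21, 33 of 78 members had a protein-coding neighbour on the opposite strand whose 5′ end was within 1000 bases, and 29 of these had a neighbour that was tested and not itself a member. The median log2 fold change was -0.095 in those 29 members, with 28 below 0, and -0.0017 in their neighbours, with 16 below 0, against 48.8% of all genes tested. In 22 of the 29 pairs the member was lower than its neighbour. The neighbours were longer, with a median of 2431 bases against 1006 bases in the members. With the length offset the members had a median of -0.013 and the neighbours a median of -0.017, and the member was the lower one in 15 of 29 pairs.

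No neighbour passed the adjusted threshold in edgeR or was higher at an unadjusted p under 0.05, against 4.83% of all genes higher. At that p 2 of the 29 neighbours were lower, against 5.56% of all genes. The neighbour of *Mrpl49*, the gene *Fau* for a ubiquitin-like protein fused to a cytosolic ribosomal protein, had a log2 fold change of -0.17. The neighbour of *Mrpl32*, the proteasome gene *Psma2*, was at -0.13. With the length offset *Fau* was at -0.045 and *Psma2* at -0.038. The promoter of *Mrps12* printed above is shared in this way with *Sars2*, the mitochondrial seryl-tRNA synthetase, and the genes were at -0.15 and -0.13. The value of *Sars2* had a standard error of 0.082 (unadjusted p = 0.13 from edgeR). With the length offset *Mrps12* was at -0.040 and *Sars2* at -0.096. *Mrpl46* and *Mrps11* are neighbours of each other, a large and a small subunit gene, and were at -0.072 and -0.098. With the length offset they were at 0.013 and -0.015. Exons of 23 members overlap those of another protein-coding gene, 20 of them on the opposite strand, among them *Mrpl21*, *Mrps30* and *Mrps25*. The share of such overlaps over all genes was not counted either. The sources used here do not say if the counting used strand, so reads of these genes and their partners cannot be told apart with certainty.

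**Figure D5:**
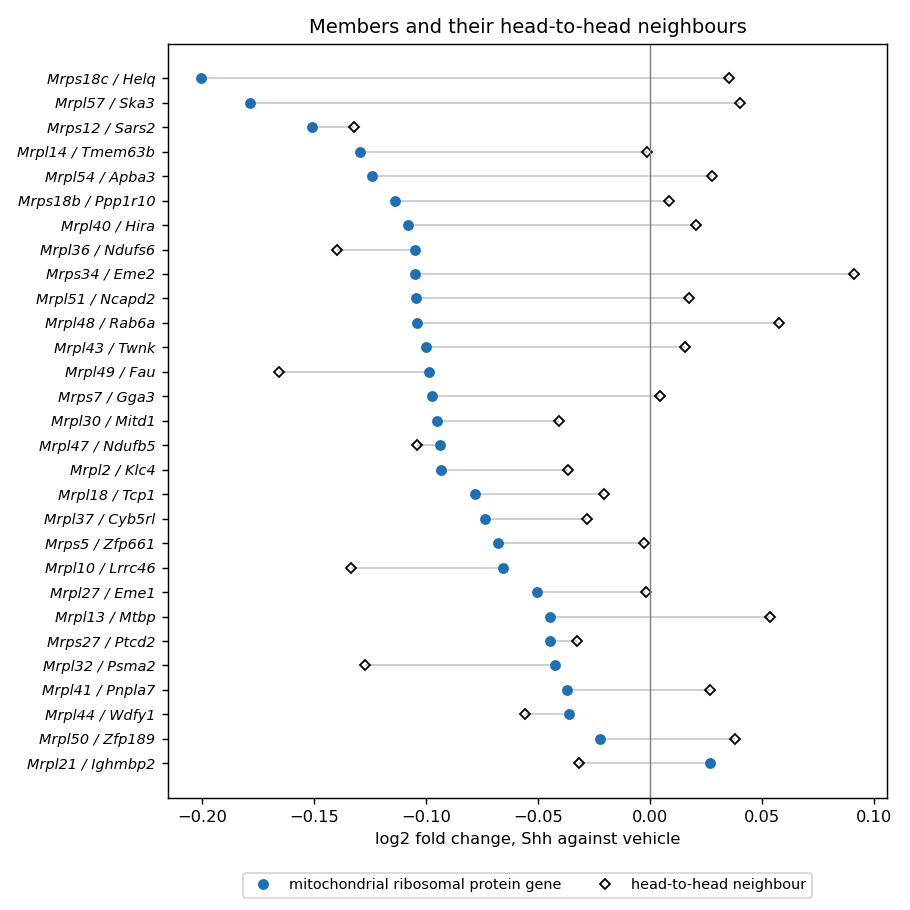
Log2 fold change of Shh against vehicle (horizontal axis) for 29 members (filled circles) and their head-to-head neighbours (open diamonds), 1 pair per line. The members have a median of -0.095 and the neighbours a median of -0.0017.

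Other genes of mitochondrial translation, from lists that the rule by symbol did not use, were read from the same fit, and none passed the adjusted threshold in edgeR or DESeq2. Their counts stand beside all genes tested, of which 48.8% lay below 0. At an unadjusted p under 0.05, 5.56% of all genes were lower and 4.83% higher. Of 5 ribosomal proteins with other names, 4 lay below 0 with a median of -0.084. At an unadjusted p under 0.05, 1 of the 5 was lower, against 5.56% of all genes. It was *Aurkaip1*, at -0.17 (standard error 0.055). *Dap3*, a GTP-binding protein of the small subunit, and *Chchd1* were at -0.084 and -0.086. Of 24 tested assembly factors, which modify and fold the RNA and place the proteins, 17 lay below 0 with a median of -0.046. At an unadjusted p under 0.05, 2 of the 24 were lower, against 5.56% of all genes, *Mpv17l2* at -0.13 and the GTPase *Mtg1* at -0.14. The next by p was *Mterf4*, at -0.16.

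The factors that work with the finished ribosome lay nearer to all genes. Of 16 translation factors and message-binding proteins, 9 lay below 0 with a median of -0.017. At an unadjusted p under 0.05, 2 of the 16 were lower, against 5.56% of all genes. These were the elongation factor *Tufm* at -0.097 (standard error 0.037) and the recycling factor *Mrrf* at -0.13 (standard error 0.055). The initiation factor *Mtif2* was at -0.10. *Tufm* had 230.3, 226.1 and 230.4 CPM in Shh libraries, against 248.1, 244.5 and 241.8 CPM in vehicle libraries, without overlap and with Shh replicate 2 close to the other Shh libraries. Of 20 mitochondrial tRNA synthetases and amidotransferase subunits, 11 lay below 0 with a median of -0.0090. At an unadjusted p under 0.05, 1 of the 20 was higher, against 4.83% of all genes, the isoleucyl-tRNA synthetase *Iars2* at 0.11 (standard error 0.040). *Iars2* had 107.0, 106.5 and 104.5 CPM in Shh libraries, against 96.1, 98.8 and 98.8 CPM in vehicle libraries, with every Shh library above. *Gatb* and *Sars2* were both at -0.13. Of 10 genes for mitochondrial transcription and DNA upkeep, 5 lay below 0 with a median of -0.0065, and none was lower or higher at that p. Of 26 symbols listed for genes encoded in mitochondrial DNA, which include what the ribosome translates, 0 were found in the deposited table. These genes were therefore not analysed here. The median transcript length was 1454 bases in the ribosomal proteins with other names, 1677 in the assembly factors, 2348 in the translation factors, 2369 in the synthetases and 1998 in the transcription genes, all longer than the 1011 bases of the members. With the length offset the medians were -0.014, -0.019, -0.0033, -0.018 and -0.021 in that order, beside -0.019 in the members and -0.0036 in all genes.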

How the data were processed

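Poly(A) RNA of Hepa 1-6 cells was sequenced, 3 Shh and 3 vehicle libraries. The authors deposited a table of estimated counts per gene and of FPKM values per gene and library. Per the labels' list of tools Bowtie2 was used, with no version stated; counting tool, genome build and annotation: not given in the sources used here. Of all values above 0, 36.4% were not whole (tolerance 1e-06), 29 members included, so reads shared between genes may have been split. The table names the vehicle libraries control. It holds 6 further per-sample columns and the authors' group averages, which were not used.

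Estimated counts were rounded to whole numbers, filtered with edgeR's filterByExpr (minimum count 10, minimum total 15), scaled by TMM and tested with edgeR 4.0.16 (R 4.3.3; quasi-likelihood test, group as the only term), with Benjamini-Hochberg adjustment at 0.05 over all 12286 genes tested. CPM are TMM-scaled, and log2 CPM have a prior count of 2, except that marker sums and the Hedgehog targets are scaled to the library total alone. Lengths were recovered as counts over FPKM for genes at or above 0.5 FPKM. With 3 libraries against 3, the smallest two-sided exact p is 0.1, so single values were given no permutation test. The test was tested on simulated data.

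Members and lists were chosen with earlier results of these data known. Members named were the 5 of each subunit with the smallest p, the 3 highest and 3 lowest of each by vehicle FPKM, those above 0, the Mrps18 paralogs and *Mrps30*, and up to 3 genes of each other list by p. Members were placed by origin and structure from general knowledge. All 78 members matched a RefSeq gene, and promoters came from RefSeq (GRCm38.p6). Neighbours and exon overlaps were found from the coordinates of GENCODE M21. Its build need not be that of the files, so these coordinates are not printed.

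Alternatives were DESeq2 1.42.0, upper-quartile and RLE factors, no filter, at least 5 CPM in 3 libraries, a block for replicate number, a transcript length offset (a smooth trend of each library, 5 degrees of freedom), that offset with the block, levels as CPM over recovered length, and leaving out each library. That offset without Shh replicate 2 or 1 was chosen after seeing the data.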

Additional observations from a re-analysis of the deposited data

How the results depend on the processing

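Under DESeq2, upper-quartile factors, RLE factors, no filter and the stricter filter, the median was -0.090 to -0.097, with 74 or 75 members below 0. Mrpl minus Mrps was -0.0010 to -0.0013. At an unadjusted p under 0.05, 15 members were lower under DESeq2, against 475 of 12286 genes. Upper-quartile and RLE factors gave 18 each, against 682 and 674 of 12286 genes. The stricter filter gave 17, against 594 of 9868 genes, and no filter gave 26, against 819 of 18118 genes. Genes called numbered 0 with all libraries, 1 with no filter, 1 with the length offset, 5 with the offset and block, 2 with the offset without Shh replicate 2, 10 with the offset without Shh replicate 1, and 0 to 195 when 1 library was left out. Members called numbered 0 to 1 when 1 library was left out. Members lower at the unadjusted p numbered 18, against 683 of 12286 genes. Under the length offset they numbered 6, against 399 of 11471 genes, and 6 with the block added, against 476 of 11471. With the offset they numbered 3 without Shh replicate 2, against 300 of 11517 genes, and 9 without Shh replicate 1, against 641 of 11505. Higher at that p were 1 under the offset, against 298 genes, and 2 with the block, against 367. Without Shh replicate 2 or 1 the offset gave 2 and 3 higher, against 186 and 773 genes. Without the offset, 3 to 39 members were lower when 1 library was left out, against 2.58% to 10.4% of all genes. The Mrps median was -0.014 with the offset, -0.013 with the block added and -0.0058 with the offset without Shh replicate 2, where the median of all members was -0.015. Mrpl minus Mrps was -0.026 to 0.010 on leaving out a library. Members without overlap numbered 11 with the offset (7.1% of all genes) and 26 to 46 on leaving out a library, where the share of all genes was 11.6% to 18.8%, highest with the 46 members without Shh replicate 1.

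Some members changed sign. Members below 0 numbered 75 in the main fit, 54 once transcript length was allowed for, and 62 once Shh replicate 2 was dropped. The genes listed next are only a part of those that changed sign. *Mrpl21* ranged over -0.025 to 0.10 and *Mrps22* over -0.013 to 0.044 when 1 library was left out. With the length offset *Mrps18a* was at 0.023, at 0.023 with the block, 0.0067 without Shh replicate 2 and 0.058 without Shh replicate 1, and *Mrps30* at 0.0031, 0.0029 with the block and 0.029 without Shh replicate 1. The cause was not tested.

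Same-numbered libraries of the groups deviated with correlations of -0.040, -0.054 and 0.098, and the Shh library matched its own number best for number 3 only. Correlations this weak cannot show if same-numbered libraries were prepared together, and the fits took the numbers as no pairs except under the block. The replicate block alone gave 22 members lower at the unadjusted p, against 747 of 12286 genes, and 0 called by edgeR, against 0 of all genes. Standard errors were derived as the size of the log2 fold change over the square root of the F statistic of edgeR's test. In the members they ran from 0.039 to 0.092 on the log2 scale, beside a median difference of -0.095, which limits calls gene by gene. Levels as CPM over recovered length equal the FPKM by construction and check nothing. Overlap between groups has no value of its own under DESeq2, whose scaling is that of the RLE factors (26 members), or under the block, which leaves CPM as they are.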
